A study of Mus musculus with 4 samples.

Results

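The genes of oxidative phosphorylation (OXPHOS) were followed across single mouse haematopoietic stem cells (HSCs). Members were all genes whose symbol starts with mt-, Nduf, Sdha, Sdhb, Sdhc, Sdhd, Uqcr, Cox4i, Cox5, Cox6, Cox7, Cox8, Cycs or Atp5, which gave 104 of the 13742 genes counted. Of these, 13 are encoded by mitochondrial DNA and 91 by nuclear genes, and the nuclear set holds 76 subunits of the complexes, 12 assembly factors, cytochrome c, Cox7a2l and Atp5s. The rule reads gene symbols and no expression value. The cells came from the bone marrow of wild-type mice aged 8 weeks and had the ESLAMSK surface phenotype, which means they lack lineage markers and CD48 and carry Kit, Sca-1, CD150 and EPCR (also called CD201). All 4 libraries carry labels for both the CD27-negative and the CD27-positive sort gate, and no source used here gives the gate of a cell. The 4 libraries therefore form 1 group with no untreated or treated arm, and no comparison between gates was made. Nothing states that the libraries came from separate mice, so the spread between them may be technical.

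Oxidative phosphorylation takes place at the inner mitochondrial membrane. Complex I (CI, NADH dehydrogenase) and complex II (CII, succinate dehydrogenase) feed electrons through complex III (CIII, cytochrome bc1) and cytochrome c to complex IV (CIV, cytochrome c oxidase), and complex V (CV, ATP synthase) makes ATP from the proton gradient that CI, CIII and CIV build. Mitochondrial DNA encodes a small set of core membrane subunits of CI, CIII, CIV and CV, all other subunits are made from nuclear genes and imported, and CII is wholly nuclear. Long-term HSCs are largely quiescent and are known for relying on glycolysis, with OXPHOS rising on activation.

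Each cell was lysed in its own tube of a strip of 8, and its cDNA was tagged with a barcode, amplified, pooled and enriched for 3′ ends. After asking for at least 10000 counts and 1000 genes, 74, 75, 71 and 72 cells of libraries 1 to 4 were kept, 292 of 297 in all, with library totals from 5250569 to 11207442 counts. Cells carry numbers and no barcodes, and 26 of 91 numbers occur in all 4 libraries. Levels are CPM, counts scaled to a total of 1000000 per library over its kept cells. Of the sorted antigens, the transcript of Procr, which encodes EPCR, stood at 296 ± 47.8 CPM (SD, n = 4) and that of Ly6a, which encodes Sca-1, at 680.5 ± 93.3 CPM. Kit reached 222 ± 16.7 CPM. The CD150 message, from Slamf1, was sparse: 58.5 ± 27.5 CPM, with a count in 75 of 292 cells (25.7%). Summed markers of other cells were low beside the HSC identity list (10842 to 12630.1 CPM): B cell markers reached 93.9 to 113 CPM, T and NK 28.9 to 109, macrophage 19.9 to 35.1, stroma 10.01 to 38.9, mast cell and basophil 207 to 270.1, endothelial 397 to 634 and erythroid 223 to 768. The myeloid list stood higher, at 1667 to 1851 CPM, led by Lyz2 at 906 ± 64.1 and Prtn3 at 491 ± 40.8 CPM. The HSC identity list was led by Ifitm1 at 3159 ± 244 and Ifitm3 at 1857 ± 156 CPM. A single cell of library 3, with 346876 counts the deepest of all, held 6.61% of that library's counts, 5.13% of them from nuclear OXPHOS subunits. Without it the erythroid sum of library 3 fell from 768 to 279.6 CPM. The nuclear and mt-encoded sums of library 3 and the counts of subunits highest there are also given without this cell. Sums by complex, relations and medians of cells include it. Leaving it out moved 0 of 82 sums and relations by more than 1 SD between libraries.

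Stretches of consecutively numbered cells, 1 in library 2 (cells 25 to 32) and 1 in library 4 (cells 9 to 16, 7 of them kept), stood apart from the other cells of their library. The mean correlation among their cells, on log2(CPM + 10) values centred on the library, was 0.14 and 0.22, against -0.018 to 0.038 in the 38 other runs of 8 cell numbers. Their mt-encoded share was high, with medians of 2.31% and 2.78% of a cell's counts against 1.14% to 2.16% elsewhere, while their nuclear OXPHOS share, at 2.49% and 2.37%, lay within the range of the other cells. Within library 4, the summed level of mt-Cytb was 11220.3 CPM in the run and 4465 CPM outside it. Their cells had a median of 1888 and 1816 genes, against library medians of 2827 to 3191. The runs were noticed in the data, and leaving them out moved 0 of 82 sums and relations by more than 1 SD between libraries.

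Sequences that bear on the counts are shown first. The tail of the mt-Co3 message (chrM:9331-9390 of GRCm38, plus strand) is printed because its first 59 bases, in capitals, also occur with 0 mismatches in the annotated pseudogene Gm28437 on chromosome 1. The tail of mt-Cytb (chrM:15229-15288, plus strand), wholly in lower case, occurs in 0 other annotated transcripts.

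mt-Co3, end of the transcript: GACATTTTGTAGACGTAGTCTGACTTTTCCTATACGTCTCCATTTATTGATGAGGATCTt
mt-Cytb, end of the transcript: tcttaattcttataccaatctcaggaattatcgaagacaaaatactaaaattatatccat

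Promoters of nuclear members hold short motifs of factors known to drive OXPHOS genes, and RefSeq promoters (GRCm38.p6, 250 bases before to 50 after the start) were matched for 76 of the 91 nuclear members. The core of NRF1, nuclear respiratory factor 1, searched as GCGCATGC on both strands, was in 13 of the 76 (17.1%), against 3.05% of all 27025 promoters and 7.01% of the 4211 promoters of genes with a count in at least 20% of cells. The YY1 core, AAGATGGC, was in 10 of 76 (13.2%), against 3.19% and 6.67%. The GABP core, CCGGAAGT, was in 4 of 76 (5.26%), against 4.31% and 11.7%, and the core of the oestrogen-related receptors, TCAAGGTCA, in 2 of 76 (2.63%), against 0.47% and 0.33%. Matches of letters were counted, not binding. The sequences are the 2 NRF1-core promoters with the highest mean CPM, Cox6a1 and Ndufa6, that of the ATP synthase subunit Atp5k, and that of Atp5j, the highest with the YY1 core, with the core in capitals. From the start site, the core begins at -162 in Cox6a1, -83 in Ndufa6, -50 in Atp5k and -88 in Atp5j, and in Cox6a1 and Atp5k it overlaps its own reverse complement.

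Cox6a1, chr5:115348909-115349208, minus strand: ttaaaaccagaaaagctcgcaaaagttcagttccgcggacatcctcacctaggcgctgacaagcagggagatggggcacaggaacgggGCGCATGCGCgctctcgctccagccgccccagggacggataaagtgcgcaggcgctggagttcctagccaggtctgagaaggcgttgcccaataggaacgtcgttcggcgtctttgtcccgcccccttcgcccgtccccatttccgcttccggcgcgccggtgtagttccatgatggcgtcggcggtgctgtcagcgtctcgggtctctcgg
Ndufa6, chr15:82354242-82354541, minus strand: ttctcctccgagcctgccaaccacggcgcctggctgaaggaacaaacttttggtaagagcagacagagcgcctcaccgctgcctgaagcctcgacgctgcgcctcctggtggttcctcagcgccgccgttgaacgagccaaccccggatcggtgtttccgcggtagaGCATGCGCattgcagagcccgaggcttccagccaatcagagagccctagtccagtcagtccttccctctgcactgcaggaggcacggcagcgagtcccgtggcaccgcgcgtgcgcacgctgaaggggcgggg
Atp5k, chr5:108434350-108434649, minus strand: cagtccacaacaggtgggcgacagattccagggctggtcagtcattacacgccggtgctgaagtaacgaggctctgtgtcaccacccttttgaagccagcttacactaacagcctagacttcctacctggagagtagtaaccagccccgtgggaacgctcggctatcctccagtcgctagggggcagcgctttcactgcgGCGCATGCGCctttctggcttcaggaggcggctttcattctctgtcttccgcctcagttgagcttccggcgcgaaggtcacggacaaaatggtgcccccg
Atp5j, chr16:84834927-84835226, minus strand: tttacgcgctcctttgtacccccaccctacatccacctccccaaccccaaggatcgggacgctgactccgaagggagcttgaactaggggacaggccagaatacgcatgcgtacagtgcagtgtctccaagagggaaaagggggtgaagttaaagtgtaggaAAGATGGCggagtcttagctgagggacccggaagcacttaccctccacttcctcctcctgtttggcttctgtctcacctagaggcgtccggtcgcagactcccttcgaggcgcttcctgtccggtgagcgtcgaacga

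Nuclear subunits together took more of the counts than the mt-encoded genes did. The 76 nuclear subunits summed to 24063, 23789, 26829 and 24922 CPM in libraries 1 to 4, 24901 ± 1373 (SD, n = 4) or 2.49% of counts. The 13 mt-encoded genes summed to 14619, 14858, 15256 and 14019.8 CPM, 14688 ± 517 or 1.47% of counts. The nuclear sum was above the mt-encoded sum in 4 of 4 libraries, by 1.70 ± 0.086-fold. Several mt-encoded genes share most of their sequence with nuclear copies, and how reads matching several places were counted is not given. The mt-encoded sum and this ratio are therefore uncertain. Library 3 had the highest value of both sums, and without its deepest cell it had 25097 CPM nuclear and 14764 CPM mt-encoded, the second then below library 2. No kept cell had more than 20% mt-encoded counts.

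By complex, nuclear sums stood at 8372 ± 313 CPM for the 35 CI subunits, 6583 ± 322 for the 15 of CV and 6417 ± 611 for the 14 of CIV, then 2577 ± 255 for the 8 of CIII and 952 ± 69.4 for the 4 of CII (SD, n = 4). CV and CIV did not differ beyond their spread, and each other neighbour in this order was separated in every library. The mt-encoded genes of CI summed to 7870.4 ± 361 CPM and mt-Cytb, the mt-encoded gene of CIII, reached 4972 ± 226, but those of CIV only 1754 ± 50.4 and of CV 91.9 ± 7.08. CI and CIII thus had comparable or larger mt-encoded sums beside their nuclear ones, while in CIV and CV the nuclear sum was the larger as counted. That order for CIV and CV rests on mt-Co1, mt-Co2, mt-Co3 and mt-Atp6, which share 95.3% to 100% of their last 500 bases with nuclear copies, so these mt-encoded levels are uncertain. The 12 assembly factors, which help build the complexes without staying in them, summed to 746 ± 42.9 CPM. Divided by transcript length, the median nuclear subunit level was 733 CPM per kb in CIV, 502 in CIII, 366 in CV, 238 in CI and 129 in CII, against 26.7 for the assembly factors.

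**Figure D1:**
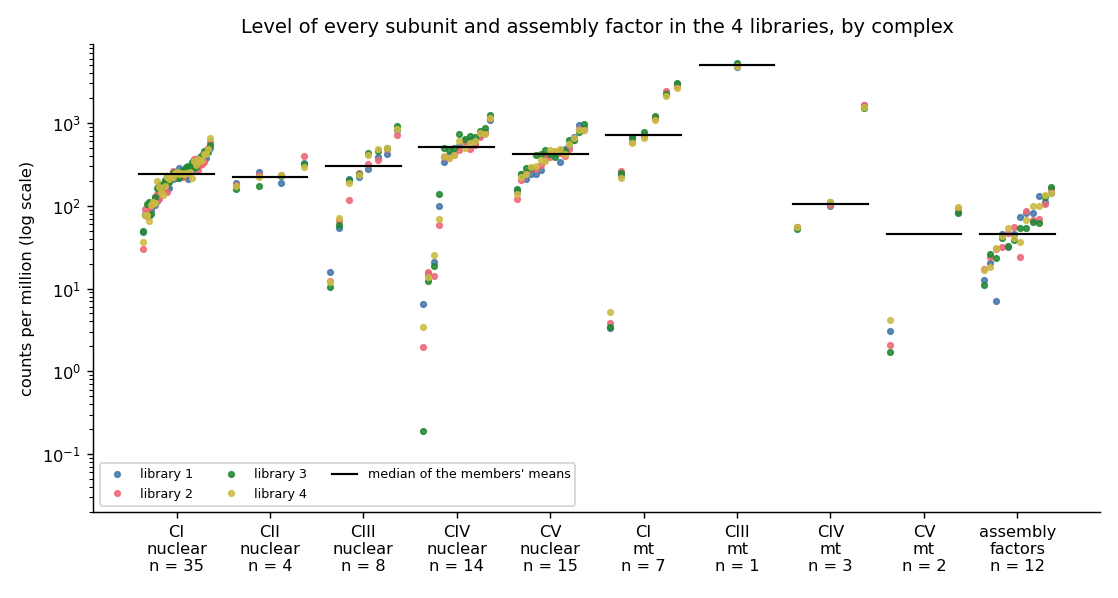
Each point is 1 member in 1 library (CPM, log axis), grouped by complex with nuclear subunits, mt-encoded subunits and assembly factors apart, and the bar is the median of the members' means. Nuclear subunits centre on 267 CPM and assembly factors on 45.9, while the mt-encoded genes spread from 2.78 to 4972.

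Most members were widely detected. Of 104, 97 had a count in at least 20% of the 292 cells, 31 in at least 90%, and 77 had a mean above 100 CPM. Nuclear subunits in at least 20% of cells had a median level of 275 CPM against 73.6 over the 5301 genes so detected, and a median coefficient of variation between libraries of 10.8% against 19.0%. Among genes above 100 CPM these were 10.6% for 65 nuclear subunits and 13.01% for 1930 genes. Of the 76 nuclear subunits 37 were highest in library 3, and so were 11 of 14 in CIV, against 25.5% of all genes. Without the deepest cell of that library, which has the fewest counts of the 4, these were 26 of 76 and 8 of 14, against 25.1%. S phase genes were also high there, at 1377, 1353, 2619 and 1143 CPM in libraries 1 to 4, and at 2172 in library 3 without that cell. Their part in the OXPHOS levels was not tested.

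In CI, Ndufa6 was highest among its nuclear subunits, at 499, 596, 541 and 664 CPM, 575 ± 71.5. Ndufa2, Ndufa7 and Ndufa3 followed at 477 ± 22.97, 419 ± 30.4 and 395 ± 51.1 CPM, and like Ndufa6 they encode accessory subunits that surround the catalytic core. The highest, Ndufa6, overlapped Ndufa2 in range. CII, which links the citric acid cycle to the chain, was headed by Sdha, its flavoprotein, at 326, 397, 317 and 290.3 CPM, 332 ± 45.3. The iron-sulphur subunit Sdhb stood at 223 ± 24.2 CPM and the membrane anchors Sdhc and Sdhd at 221 ± 36.9 and 175 ± 10.9. All 4 CII subunits lay within a narrow range of levels compared with CIII.

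CIII ran from Uqcrh, its hinge protein, at 811, 711, 922 and 846 CPM (823 ± 87.5) to Uqcrc1, a core protein, at 12.6 ± 2.19 CPM. Uqcrc1 had a count in 131 of 292 cells (44.9%, 95% exact binomial interval 39.1 to 50.8). Between them stood the small subunits Uqcrb at 478 ± 37.1, Uqcr11 at 423 ± 61.2 and Uqcr10 at 360.1 ± 72.3 CPM. In CIV, Cox4i1, a nuclear subunit needed for assembly of the oxidase, was the highest nuclear member of all, at 1090.4, 1152, 1247 and 1144 CPM, 1158 ± 65.1 (chr8:120668222-120674207, plus strand). Cox8a, Cox6b1 and Cox7c followed at 788 ± 63.1, 736 ± 56.9 and 601 ± 61.8 CPM, the last with over 50% of its final 500 bases shared with other transcripts. Cox5a, another subunit of the oxidase, was counted at only 19.8 ± 4.58 CPM, with a count in 143 of 292 cells (48.97%, 95% exact binomial interval 43.1 to 54.9). Uqcrc1 and Cox5a were thus counted far below other subunits of their complexes. Cox5a shared 42.4% of the 50-mers of its last 500 bases with other transcripts.

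ATP synthase was led by the catalytic subunits of its soluble head, Atp5b at 865, 819, 974 and 827 CPM (871 ± 71.6) and Atp5a1 at 853 ± 73.4. Atp5j, of the peripheral stalk, and Atp5e, a small subunit, stood at 649 ± 26.9 and 549 ± 58.5 CPM. Length changed this order: per kb of transcript Cox4i1 (1514), Uqcrh (1504), Cox8a (1434), Atp5e (1303) and Cox6b1 (1190.2) headed the 76 subunits. Atp5b moved from rank 2 in CPM to rank 26 and Atp5a1 from 3 to 33, and 6 of the 10 highest kept a place among the 10. As counts came from 3′ ends, CPM is the main scale. Cytochrome c, encoded by Cycs, stood at 56.4 ± 9.90 CPM, in 138 of 292 cells.

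Subunits with tissue-specific isoforms gave mostly the ubiquitous form. Cox4i1 exceeded its hypoxia- and lung-associated isoform Cox4i2 by 82.2 ± 14.2-fold, and Cox4i2 had a count in 26 of 292 cells (8.90%, 95% exact binomial interval 5.90 to 12.8). The muscle isoform Cox7a1 was at 3.01 ± 2.66 CPM in 7 of 292 cells (2.40%, 95% exact binomial interval 0.97 to 4.88), against 437 ± 45.2 for Cox7a2, and Cox7a2l, which links CIII and CIV into supercomplexes, was at 592 ± 16.98. Cox6b1 exceeded Cox6b2, known as a testis isoform, by only 8.90 ± 2.75-fold, with Cox6b2 at 97.96, 58.2, 137 and 69.1 CPM in 97 of 292 cells (33.2%, 95% exact binomial interval 27.8 to 38.9). Genes Atp5g1, Atp5g2 and Atp5g3 encode the same mature c-ring protein and stood at 307 ± 71.1, 142 ± 16.8 and 227 ± 17.1 CPM. Atp5g2 was the lowest of these in 4 of 4 libraries, and over 50% of its last 500 bases is shared with other transcripts. Cox6a1 stood at 580.0 ± 111 CPM and Ndufa4, now placed in CIV, at 584 ± 63.1. The partners Cox6a2, Cox8b and Ndufa4l2 were not analysed here.

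Among the mt-encoded genes, 3 carried most of the counts. Cytochrome b, mt-Cytb (chrM:14145-15288, plus strand), stood at 4786, 4989, 5285 and 4829 CPM, and the CI core subunits mt-Nd1 (chrM:2751-3707, plus strand) and mt-Nd4 (chrM:10167-11544, plus strand) at 2923, 2819.5, 3012 and 2682 CPM and 2282, 2431, 2267 and 2126 CPM. Together they made 68.8% ± 0.38 of mt-encoded counts. Next came the oxidase core subunit mt-Co1 at 1594 ± 54.7 CPM, mt-Nd2 at 1149 ± 56.9, mt-Nd6 at 717 ± 50.9, mt-Nd5 at 626 ± 47.8 and mt-Nd3 at 239 ± 18.8. The other oxidase core subunits were far lower, mt-Co2 at 105 ± 6.52 and mt-Co3 at 54.2 ± 1.48 CPM, as were the ATP synthase genes mt-Atp6 at 89.2 ± 6.43 and mt-Atp8 at 2.78 ± 1.11 and the CI gene mt-Nd4l at 3.95 ± 0.84. The order held between libraries, whose median coefficient of variation for these genes was 5.83%. Per kb, mt-Cytb stood at 4346, mt-Nd1 at 2988, mt-Nd4 at 1652 and mt-Co3 at 69.1 CPM per kb.

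Low mt-encoded counts went with sequence shared with nuclear copies of mitochondrial DNA. For mt-Co2, mt-Atp6, mt-Co3, mt-Nd3 and mt-Nd4l, 100%, 99.5%, 99.9%, 97.99% and 98.8% of 50-base windows occurred in another annotated transcript, mainly pseudogenes on chromosome 1 with 0 or 1 mismatch. These 5 genes held 3.35% ± 0.12 of mt-encoded counts. mt-Cytb, mt-Nd1 and mt-Nd6 shared 0%, and mt-Nd4 shared 62.2% over its length but 0% in its last 500 bases, where 3′ reads fall. Exceptions were mt-Co1, with 95.3% of its last 500 bases shared and the fourth highest level, and mt-Atp8, the lowest, which shared 0% of 50-base windows with another gene. Its last 43 of 204 bases overlap the start of mt-Atp6 on the same strand, however, and mt-Nd4l overlaps mt-Nd4 by 7 bases. The sources used here do not say how reads matching several places were counted, so the levels of genes with shared stretches are uncertain, and the part of sharing in them was not tested. mt-Nd6, on the minus strand, overlaps mt-Nd5 by 14 bases. The rules for strand and overlapping genes in the counting are not given, so reads in these overlaps cannot be assigned to 1 gene. Over its whole length, mt-Nd6 may likewise have been counted from reads of either strand. The copies on chromosome 1 were not analysed here.

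**Figure D2:**
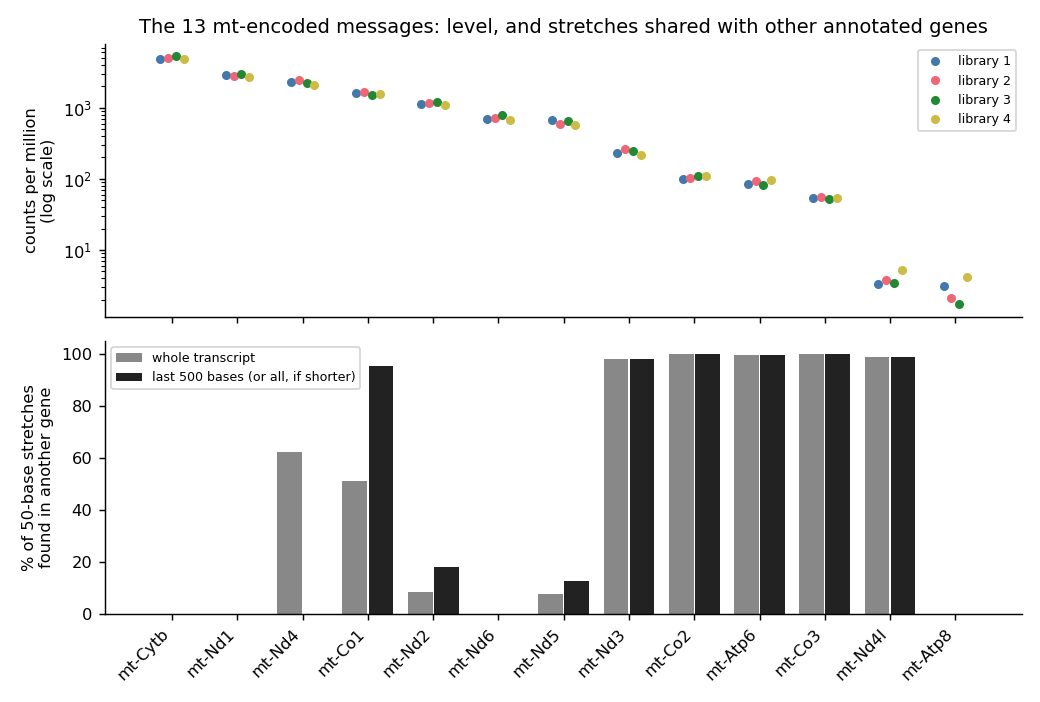
Upper panel: level of the 13 mt-encoded genes (CPM, log axis) with 1 point per library. Lower panel: percent of 50-base stretches of the same gene that occur in another annotated gene, over the whole transcript and over its last 500 bases. mt-Co2, mt-Atp6, mt-Co3, mt-Nd3 and mt-Nd4l are shared nearly over their length and lie at or below 239 CPM on average, while mt-Cytb and mt-Nd1 share 0%.

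Across single cells, mt-encoded and nuclear OXPHOS levels had little relation to each other. The median cell had 1.42% ± 0.080 mt-encoded and 2.36% ± 0.065 nuclear subunit counts (SD over 4 library medians). The mt-encoded share varied more, with a coefficient of variation over cells of 36.8% against 17.8%. In cells thinned to 30000 counts (72, 70, 64 and 70 cells), Spearman's rho between the sums was -0.033, -0.048, -0.18 and -0.088 in libraries 1 to 4, -0.086 ± 0.064 (SD, n = 4). Its sign was negative in 4 of 4, with a mean of -0.056 without library 3, but with totals taken without ribosomal protein and mt-encoded counts the mean was 0.052, so its direction depends on the scaling. Thinned cells have 1 fixed total, so each sum is a share of it. Correlations over cells are descriptions and carry no p-value, and 4 libraries allow no two-sided exact sign-flip p below 0.13.

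Depth moved with the sums in opposite directions. With a cell's total count before thinning, the mt-encoded sum had rho -0.42, -0.33, -0.17 and -0.31, -0.31 ± 0.10, and the nuclear sum had rho 0.041, 0.34, 0.36 and 0.091, 0.21 ± 0.17. From the lowest to the highest tertile of total counts, the mt-encoded level of the median cell, averaged over libraries, was 16550.0 ± 1001 and 13696 ± 1044 CPM (SD, n = 4), lower in 4 of 4 libraries. By the same measure, used for every tertile below, nuclear levels were 22812 ± 827 and 24933 ± 556 CPM, higher in 4 of 4. The part of depth in the relations below was not tested beyond the partial correlations given with them.

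**Figure D3:**
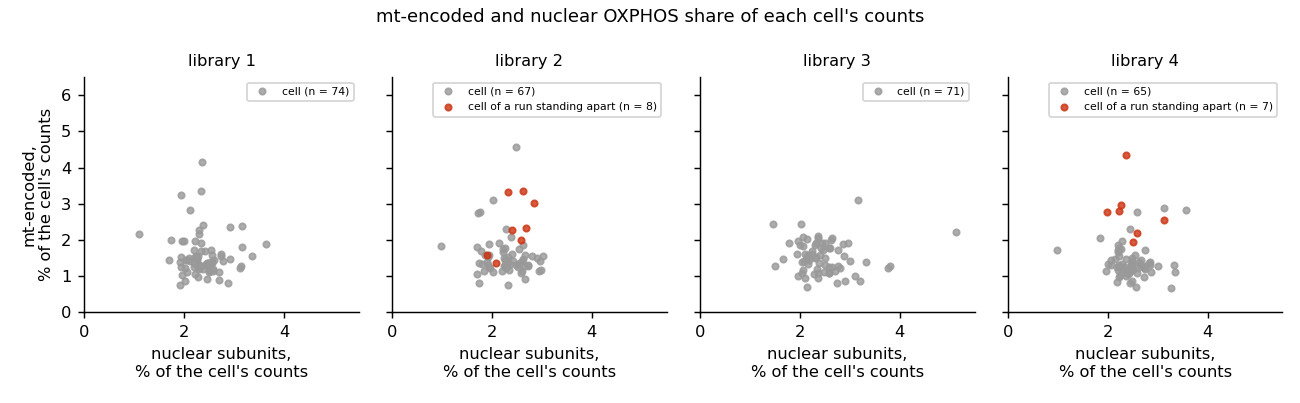
Each point is 1 kept cell, with nuclear subunits on the horizontal and mt-encoded genes on the vertical axis, both as percent of the cell's counts, in 1 panel per library, and the cells of the runs in libraries 2 and 4 in another colour. The mt-encoded share spreads more (coefficient of variation 36.8%) than the nuclear share (17.8%), and the run cells sit high on the mt-encoded axis.

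Nuclear subunits moved together weakly. Each was set against the sum of the other nuclear subunits, and a relation was called where its sign was the same in 4 of 4 libraries. Of 74 subunits in at least 20% of cells, 27 were called positive, against 13.3% of all 5301 genes so detected (background), and 1 negative, against 5.23%. The median rho was 0.088 against 0.023 over all genes. By complex, 8 of 12 CIV subunits, 6 of 15 of CV, 10 of 35 of CI, 3 of 8 of CIII and 0 of 4 of CII were positive in 4 of 4. Of the 12 mt-encoded genes set against the sum of the others, 11 were positive in 4 of 4 libraries, against 3.41% of all genes, with a median of 0.32 against -0.051. With the 2 runs of 8 cells left out, the medians were 0.094 and 0.28. The mt-encoded set was thus tighter than the nuclear set, beside its higher counts per gene. Both sets also lay above the background in level, with medians of 275 CPM for nuclear subunits and 671 for mt-encoded genes against 73.6. The part of level in these shares was not tested.

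The highest nuclear relation was that of Cox6b2, with rho 0.33, 0.44, 0.19 and 0.17 in libraries 1 to 4, 0.28 ± 0.13 (SD, n = 4). Atp5o, in the ATP synthase stalk, had 0.16, 0.29, 0.30 and 0.17, 0.23 ± 0.077. Uqcr11 had 0.21 ± 0.14 and the CI subunits Ndufb10 and Ndufa2 0.21 ± 0.093 and 0.20 ± 0.20, the last positive in 3 of 4. At the low end stood the 5 nuclear members Uqcrc1, Sdha, Atp5s, Sdhaf4 and Ndufa13, from -0.11 to -0.029. Uqcrc1 was negative in every library at -0.098, -0.075, -0.094 and -0.17, and is among the subunits with the lowest counts. Among mt-encoded genes, mt-Nd4 had 0.41, 0.40, 0.57 and 0.51, 0.47 ± 0.079, and mt-Cytb, mt-Nd1 and mt-Nd6 had 0.45 ± 0.092, 0.45 ± 0.027 and 0.41 ± 0.071. mt-Nd6, annotated on the minus strand unlike the remaining 12, kept the same sign in 4 of 4. The strand rule of the counting is not given, so its counts may include reads from the plus strand. Against the mt-encoded sum, 4 of 74 nuclear subunits were positive in 4 of 4 libraries and 16 negative, against 3.41% and 22.3% of all genes, shares close to the background. Among the lowest were Atp5d at -0.26 ± 0.097, Cox8a at -0.23 ± 0.15, Ndufa8 at -0.19 ± 0.051 and Cox4i1 at -0.18 ± 0.14, and Uqcrb was highest at 0.15 ± 0.073.

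**Figure D4:**
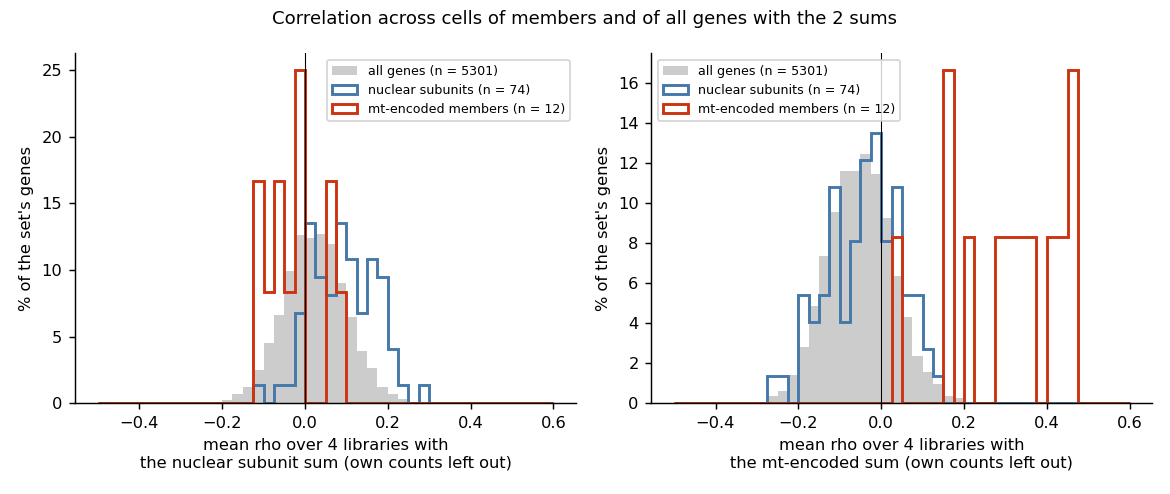
Distribution of the mean rho over 4 libraries with the nuclear (left) and mt-encoded (right) sums, as percent of each set's genes, for all 5301 genes in at least 20% of cells and for the members. Nuclear subunits are shifted to a median of 0.088 on the left, and mt-encoded genes to 0.32 on the right, against 0.023 and -0.051 over all genes.

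Pairs of complex sums gave the same picture. All 6 pairs of mt-encoded sums were positive in 4 of 4 libraries, led by CI with CIII at 0.33, 0.45, 0.42 and 0.53, 0.43 ± 0.085, and down to CI with CV at 0.13 ± 0.14 (0.064 without library 1). Of the 10 nuclear pairs, 6 were positive in 4 of 4: CI with CIV at 0.27 ± 0.11, CIV with CV at 0.25 ± 0.13, CI with CV at 0.20 ± 0.051, CIII with CIV at 0.17 ± 0.068, CIII with CV at 0.15 ± 0.097 and CI with CIII at 0.13 ± 0.081. The 4 pairs with CII, the complex shared with the citric acid cycle, lay between -0.066 and 0.028. Within a complex, nuclear and mt-encoded sums were at -0.043 ± 0.18 for CI, 0.048 ± 0.058 for CIII, -0.017 ± 0.088 for CIV and 0.055 ± 0.10 for CV, each no larger than its SD. Of these 4 pairs CIII alone had 1 sign in 4 of 4 libraries, at 0.0017, 0.032, 0.024 and 0.13, with a mean of 0.019 without library 4. The lowest of all pairs was nuclear CV with mt-encoded CI, at -0.14, -0.13, -0.28 and -0.22, -0.19 ± 0.070. Subunits with the NRF1 core in their promoter had a median rho with the other nuclear subunits of 0.049 (n = 10) against 0.093 (n = 52) without it.

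Cells with more nuclear OXPHOS message also had more message of other mitochondrial machinery and of growth genes. Lists of genes were summed per thinned cell and set against the nuclear subunit sum, with OXPHOS members left out of every list. The 76 mitochondrial ribosome genes, whose products translate the mt-encoded messages, had rho 0.24, 0.42, 0.34 and 0.24, 0.31 ± 0.086, and 24 of 72 single genes were positive in 4 of 4 libraries and 1 negative. Nuclear OXPHOS levels were 22904 ± 571 CPM in the lowest and 25979 ± 1789.5 CPM in the highest tertile of that list (SD, n = 4), higher in 4 of 4 libraries. Protein import and chaperone genes had 0.39, 0.19, 0.43 and 0.19, 0.30 ± 0.13, with 5 of 26 genes positive in 4 of 4. The Myc family and its growth targets, such as the nucleolar genes Npm1 and Ncl, had 0.30, 0.42, 0.22 and 0.28, 0.30 ± 0.084, with 4 of 10 genes positive. Against the 13.3% background, the share of single genes called was closest for the import list and higher for the mitochondrial ribosome and Myc lists.

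Genes against reactive oxygen species had 0.24 ± 0.13 (6 of 15 genes positive in 4 of 4, 0 negative), and glycolysis 0.18, 0.46, 0.23 and 0.094, 0.24 ± 0.16 (6 of 18 positive). Over tertiles of glycolysis the nuclear OXPHOS level was 22375 ± 1083 and 24404 ± 669 CPM, higher in 4 of 4 libraries. Other assembly factors of the chain had 0.19 ± 0.12, and the citric acid cycle 0.15 ± 0.14 (0.094 without library 2), each with all 4 libraries on the positive side, 4 of 21 and 5 of 14 single genes. Cytoplasmic ribosomal proteins, the largest list by counts, had only 0.058 ± 0.051, with 15 of 82 genes positive and 7 negative. Over all genes, 13.3% were positive and 5.23% negative in 4 of 4 libraries. Of the lists in this paragraph, the ribosomal proteins and the other assembly factors had positive shares closest to that background.

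The immediate-early list, stress and dissociation-sensitive genes such as Fos, Jun and Dusp1, moved the other way, with rho -0.28, -0.39, -0.15 and -0.14, -0.24 ± 0.12. Of its 18 genes, 11 were negative in 4 of 4 libraries, against 5.23% of all genes, and 0 positive. Nuclear OXPHOS levels were 24867 ± 216 CPM in its lowest and 22233 ± 1197 CPM in its highest tertile, lower in 4 of 4. This list held 18106 ± 1893 CPM and with z-scores of log values its rho with the nuclear sum was -0.011. How much of it was set by cell handling was not tested.

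Stem cell lists had negative means with less agreement between libraries. The HSC identity list had -0.095, 0.036, -0.33 and -0.31, -0.17 ± 0.18, with 0 of 30 genes positive and 3 negative in 4 of 4, against 13.3% and 5.23% of all genes. The dormancy list had -0.32, -0.033, -0.19 and -0.15, -0.17 ± 0.12, with 1 of 16 positive and 2 negative. Under z-scores of log values these became 0.065 and 0.0053, so their direction rests on the scoring. Among single genes, Hlf, a stem cell transcription factor, had -0.21, -0.19, -0.13 and -0.052, -0.15 ± 0.072. Mllt3, which maintains HSCs, had -0.25, -0.20, -0.21 and -0.12, -0.20 ± 0.052, and Procr -0.045, -0.17, -0.22 and -0.062, -0.12 ± 0.084. All 3 were negative in every library, though small. Txnip, which restrains glucose uptake and thioredoxin, had the lowest rho of any gene called, at -0.33, -0.046, -0.61 and -0.12, -0.28 ± 0.25, with library 3 the lowest and a mean of -0.17 without it. Over tertiles of Txnip the nuclear OXPHOS level was 24754 ± 929 and 22762 ± 954 CPM. Fos had -0.22 ± 0.13, Egr1 -0.11 ± 0.11 (-0.072 without library 2) and the D-type cyclin Ccnd2 -0.069 ± 0.030, also negative in 4 of 4. Kit, Slamf1, Ly6a, Mecom, Meis1, Cd34, Vwf, Apoe, Cdkn1c and Foxo3 had mixed signs, with means from -0.076 to 0.047. Cd27, the antigen of the sort gates, had 0.079, 0.086, -0.11 and 0.023, 0.019 ± 0.093.

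Cycle gene lists did not share 1 direction. The S phase list had 0.018, 0.37, 0.33 and -0.015, 0.18 ± 0.20, split between libraries 2 and 3, well above 0, and libraries 1 and 4, near it. Of its 14 genes 5 were positive in 4 of 4 libraries and 0 negative, against 13.3% and 5.23% of all genes. Cyclins and their kinases had -0.054, -0.029, 0.15 and -0.099, -0.0087 ± 0.11, with 1 of 5 genes positive and 1 negative. The replication helicase gene Mcm6 had 0.15, 0.28, 0.23 and 0.064, 0.18 ± 0.096, and Mycn, a Myc family gene of HSCs, 0.092, 0.30, 0.37 and 0.12, 0.22 ± 0.14. Both were positive in each library, as were the mitotic kinase gene Cdk1 at 0.16 ± 0.097 and Hif1a, the hypoxia factor, at 0.11 ± 0.060, while Myc and Pcna had 0.045 ± 0.099 and 0.17 ± 0.18 (3 of 4 each). The G2 and M phase list had 0.033 ± 0.088 with 4 of 7 genes positive in 4 of 4. Flt3, Cdkn1b, Cdk6, Top2a and Mki67 were below 20% of cells and got no rho. Of the 276 thinned cells, 17 had a count of the proliferation marker Mki67, with a median nuclear OXPHOS level of 24633 CPM (range 9967 to 52133) against 23600.0 in the other 259. Counts of Mki67, and of Cdk1 and Top2a below, were read before thinning, where deeper cells can hold more of them. The part of depth in these contrasts was not tested. In library 3 these were 33017 in 4 cells, the deepest cell among them, and 23617 in 60. In libraries 1, 2 and 4 cells with Mki67 had medians of 24633, 23400.0 and 23600.0 against 23667, 23500.0 and 23700.0 CPM. For the 57 cells with Cdk1 the medians were higher than in cells without it in 4 of 4 libraries, 24633 against 23500.0 CPM over all cells. For the 51 cells with Top2a, a topoisomerase of dividing cells, they were lower in libraries 1 and 2 and higher in 3 and 4, at 22567, 23100.0, 26267 and 25400.0 CPM against 23933, 23500.0, 23483 and 23550.0 in cells without it.

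**Figure D5:**
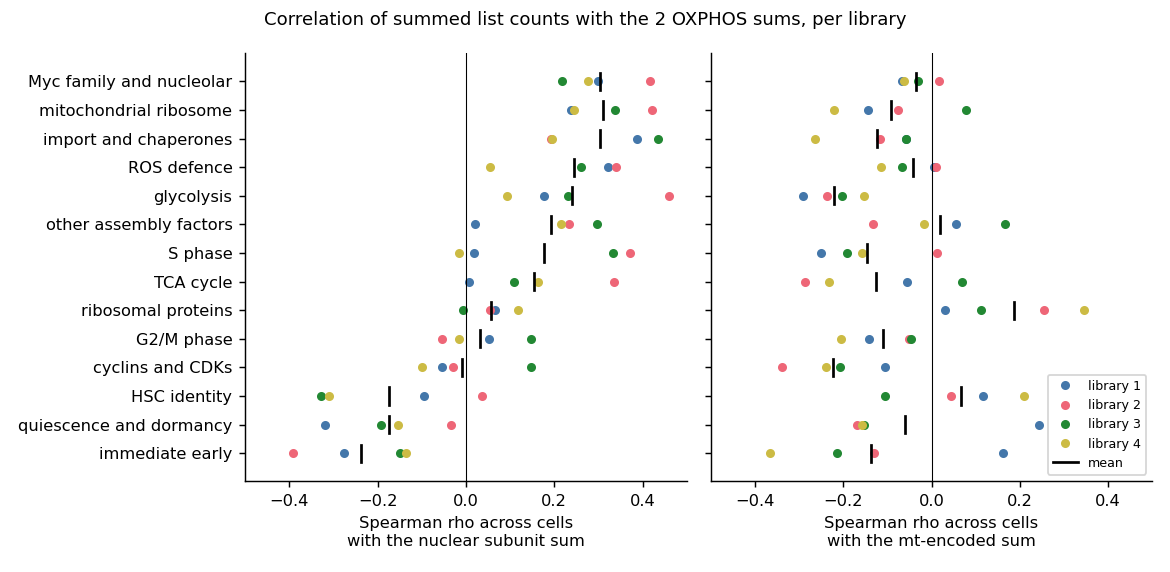
Spearman's rho across cells between the summed counts of a gene list and the nuclear (left) or mt-encoded (right) OXPHOS sum, with 1 point per library and a bar at the mean. The mitochondrial ribosome, import and Myc lists lie right of 0 in 4 of 4 libraries against the nuclear sum, and the immediate-early list left of 0. The glycolysis and import lists change side between the panels in 4 of 4 libraries.

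The mt-encoded sum had other correlates. Over all genes its rho leaned negative, with 22.3% of genes negative in 4 of 4 libraries and 3.41% positive. Ribosomal protein genes went the other way, with 0.031, 0.26, 0.11 and 0.35, 0.19 ± 0.14, and 26 of 82 genes positive in 4 of 4, led by Rps27 at 0.25 ± 0.14, Rpl10 at 0.23 ± 0.12 and Rpl34 at 0.23 ± 0.14. Rpl39, Rps29, Rps27rt and the gene models Gm11361 and Gm2000 were also among the 10 highest, with H2afy and Zfp945. Near-identical ribosomal copies can share reads, so these single values are uncertain. Glycolysis had -0.29, -0.24, -0.20 and -0.15, -0.22 ± 0.058, with 9 of 18 genes negative in 4 of 4. Over its tertiles the mt-encoded level was 15088 ± 421 and 13383 ± 336 CPM, lower in 4 of 4. Given total counts the rho was -0.17, and given genes detected -0.17. Glycolysis therefore had a positive rho with the nuclear sum and a negative one with the mt-encoded sum in every library. The import and chaperone list did the same, with -0.058, -0.12, -0.058 and -0.26 with the mt-encoded sum. Cyclins and their kinases had -0.22 ± 0.096, fatty acid oxidation -0.18 ± 0.10, S phase -0.15 ± 0.11 and G2 and M phase -0.11 ± 0.076 with the mt-encoded sum. HSC identity had 0.066 ± 0.13 with mixed signs. Of its 30 single genes, 10 were negative in 4 of 4 libraries and 1 positive, against 22.3% and 3.41% of all genes. Their median rho was -0.045, against -0.051 over all genes.

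Single stem and cycle genes were weakly related to the mt-encoded sum. Mcm6 at -0.11 ± 0.072, Ccnd2 at -0.18 ± 0.16 and Meis1, a homeobox factor of HSCs, at -0.11 ± 0.048 were negative in 4 of 4 libraries. Pcna at 0.11 ± 0.068, Cd27 at 0.063 ± 0.081 (0.023 without library 4) and Mecom at 0.035 ± 0.014 were positive in 4 of 4. These were 3 of the 24 genes of the panel in each direction, against 22.3% of all genes negative and 3.41% positive. Mcm6 and Pcna, both replication genes, thus had means of opposite sign. With the runs that stood apart left out, the means were -0.059 for Mcm6 and 0.081 for Pcna. Given genes detected they were -0.030 and 0.14, so the Mcm6 mean was then smaller in size than its SD above. In the same order of settings, Ccnd2 had -0.11 and -0.13, Meis1 -0.073 and -0.076, Cd27 0.021 and 0.066, and Mecom 0.035 and 0.045. Tfam, which packages and transcribes mitochondrial DNA, had 0.12 ± 0.053 with the nuclear and -0.15 ± 0.11 with the mt-encoded sum, of 1 sign in 4 of 4 libraries each. Of 12 genes of mitochondrial DNA and RNA upkeep, 4 were positive and 1 negative with the nuclear sum, against 13.3% and 5.23% of all genes. With the mt-encoded sum 0 were positive and 5 negative, against 3.41% and 22.3%. Of 8 regulators of biogenesis, 0 were positive and 1 negative with the nuclear sum. The lowest genes against the mt-encoded sum were Vars, Syf2, Mrpl19, Idh2, Mob3c, Snrpb, Dek, Psmd6, Sumo3 and Ptpa, from -0.28 to -0.27; Vars charges a transfer RNA, Mrpl19 is a mitochondrial ribosomal protein and Idh2 a mitochondrial enzyme.

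Among non-members, the 10 genes most like the nuclear sum, over 276 cells in 4 libraries, were Dbi at 0.29 ± 0.15, Pdap1, Ostc, Erh, Nop10, Ppia, Rps27l, Sarnp, Cdc123 and Pfn1, down to 0.24. Dbi encodes the acyl-CoA-binding protein, Ppia cyclophilin A and Pfn1 the actin-binding profilin. Usmg5, an ATP synthase subunit under a symbol the rule does not reach, had 0.20 ± 0.096 and 456 ± 61.96 CPM, and Cyc1, cytochrome c1 of CIII, 0.052 ± 0.017 and 133 ± 15.7 CPM. The lowest 10 were Txnip, the translation factor Eef2 at -0.25 ± 0.043, Klf6 at -0.23 ± 0.099, Sgms1, Fos, Inip, Ptdss1, Gnb5, Flcn and Gimap4, up to -0.20. Both ends were small in size and were picked from 5301 genes, so they are given as descriptions.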

How the data were processed

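The authors deposited 1 table of gene counts for all cells, made by STRT-seq, a 3′-end single-cell method, per the labels' protocols. The submitters' processing notes name Trimmomatic 0.36, HISAT2 2.1.0, HTSeq 0.9.1 and GRCm38. Unique molecular identifiers, strand and multi-mapping settings are not given in the sources used here, and with 20 cycles of PCR before pooling counts may be copies of 1 molecule. Intervals on shares of cells cover counting error only.
Cells with at least 10000 counts and 1000 genes were kept (292 of 297). No doublet caller was run: cells were sorted singly into tubes. Only columns whose name starts with the prefix of a library were read.
Levels are CPM of counts summed per library, with mean and SD over 4 libraries. For relations, cells were thinned to 30000 counts (276 cells, 16 left out), Spearman's rho was computed per library, and a gene was called where its sign agreed in 4 of 4 libraries, among 5301 genes with a count in at least 20% of cells. No count model or test was used, since the labels give 1 group. The rho step was tested on simulated data.
Genes named were the mt-encoded members, the 4 highest of each complex, isoform pairs, the 5 highest and lowest relations, 10 non-members at each end, a stem and cycle panel and the 3 highest genes of each list. Usmg5, Cyc1, Tfam and other regulators of mitochondrial biogenesis were named besides these. The members and lists were chosen with earlier results of these data known. The single-gene values of 1 member are not reported here. Complexes were assigned by hand from textbook knowledge. Shared stretches are exact 50-base matches among GENCODE M21 transcripts (GRCm38), and promoters are from RefSeq.
Alternatives covered the library left out, thinning, cell filter, scaling, score, covariate and coefficient, and 3 added after seeing the data: without the 2 runs of 8 cells, without the cell of the highest total, and another random draw. Python 3.11.15, numpy 2.4.6, scipy 1.17.1 and pandas 2.3.3 were used.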

Additional observations from a re-analysis of the deposited data

Results flagged for a closer look

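Of 185 values checked over the 4 libraries, 8 had 1 library far from the other 3, and about 1 in 20 would do so by chance. Each is given as a value.

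Library 3 stood apart in the sum of all 104 members, at 40125, 40046, 43488 and 40416 CPM in libraries 1 to 4, and at 41299 in library 3 without its deepest cell. Cox7a2, the ubiquitous CIV isoform, was also highest there, at 420.2, 412, 504 and 410.3 CPM (464 without that cell), as was the CI subunit Ndufb2 at 76.4, 74.4, 106 and 76.6 CPM (97.3 without it). Library 1 was lowest for Sdhb, at 186, 234, 231 and 238 CPM. Ndufs5 was highest in library 4, at 107, 106, 106 and 109.7 CPM, where the other 3 were nearly equal.

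Relations that stood apart were the nuclear sum with the lymphoid and multipotent progenitor list, with rho -0.0063, -0.038, -0.059 and 0.33 and library 4 high, the nuclear sum with mitochondrial translation factors, with rho 0.19, -0.021, 0.22 and 0.19 and library 2 low, and the mt-encoded sum with the dormancy list, with rho 0.24, -0.17, -0.15 and -0.16 and library 1 high.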

How the results depend on the processing

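Of 1088 alternative values, 1000 lay within 1 SD between libraries of the value given (1.5 times for counts), 84 moved further and 4 turned from a sign held in 4 of 4 libraries, and 6 alternatives gave no value because no gene of the list reached 20% of cells. In all, 79 had the other sign than the value given: those 4, 19 of the 84 and 56 within 1 SD. The limit on mt-encoded counts removed 0 cells and is not counted. Leaving out the 2 runs moved 0 of 82, the deepest cell 0 of 82, and 1 library 6 of 328. Those 6 were shares of all genes called. Leaving 1 of 4 libraries out cannot move a mean by 1 SD between them, nor turn a sign held in 4 of 4. For sums and rhos these values therefore count among the 1000 by construction and are no check of them. With totals taken without ribosomal protein and mt-encoded counts, sums rose by construction: nuclear subunits to 31706 CPM, mt-encoded genes to 18698, and by complex nuclear CI to 10660.2, CII to 1212, CIII to 3282, CIV to 8169 and CV to 8382, and mt-encoded CI to 10018, CIII to 6330.0, CIV to 2233 and CV to 117. As means over cells, mt-encoded genes stood at 15627 CPM, mt-encoded CI at 8376, CIII at 5276, CIV at 1879 and nuclear CV at 6256. The mt-encoded with nuclear rho was -0.17 with z-scores of log values and 0.052, of the other sign, under those totals. Those totals also gave 0.30 for the nuclear sum with ribosomal proteins and, for the mt-encoded sum, -0.14 with glycolysis and 0.028 with the Myc list. With z-scores, the nuclear sum had 0.32 with G2 and M, 0.49 with glycolysis, -0.011 with immediate-early genes, 0.55 with import, 0.66 with the mitochondrial ribosome, 0.44 with Myc and 0.17 with ribosomal proteins. Its sign turned, to 0.0053 with dormancy, 0.0019 with endothelial markers, 0.15 with the megakaryocyte list, 0.065 with HSC identity, 0.17 with regulators, 0.34 with cyclins and 0.066 with myeloid genes. The mt-encoded sum had -0.29 with glycolysis and -0.21 with Myc, and turned to -0.16 with HSC identity, -0.14 with carriers, -0.12 with fission and fusion genes, -0.11 with other assembly genes, -0.040 with the lymphoid list and -0.090 with the megakaryocyte list. With Pearson's r of log values, the nuclear sum had 0.17 with G2 and M and 0.43 with the mitochondrial ribosome, and the mt-encoded sum -0.27 with S phase. The mt-encoded sum with Myc was also -0.086 at 10000 counts, 0.053 given genes detected and 0.036 given total counts, so its sign turned under 3 settings. The cause was not tested. The filter on genes in at least 20% of cells moved 0 of 11 sums. No paired analysis was possible because the 4 libraries form 1 group. Depth per cell and PCR copies limit single-gene relations.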

Other observations

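Other mitochondrial gene groups were present at lower summed levels than the OXPHOS subunits. The mitochondrial ribosome list summed to 8174 ± 279 CPM (SD, n = 4), with Mrpl52 at 381 ± 34.3, and import and chaperone genes to 4378 ± 139 CPM, with Chchd2 at 809.9 ± 28.5 and Tomm7, of the outer membrane translocase, at 504 ± 25.1. Carriers and uncoupling genes summed to 2659.9 ± 179.9 CPM, led by the phosphate carrier Slc25a3 at 643 ± 56.9, and had rho 0.15 ± 0.10 with the nuclear and 0.0013 ± 0.11 with the mt-encoded sum. Fission, fusion and mitophagy genes summed to 2491 ± 50.8 CPM, with rho 0.0061 ± 0.096 with the nuclear and 0.029 ± 0.061 with the mt-encoded sum. Other chain assembly genes summed to 2367 ± 65.6 CPM, the citric acid cycle to 2234 ± 28.8 CPM, fatty acid oxidation to 1840.2 ± 83.6 CPM and the pyruvate dehydrogenase group to 871 ± 55.5 CPM, the last with rho 0.090 ± 0.16 with the nuclear and -0.10 ± 0.068 with the mt-encoded sum. Glycolysis summed to 4486 ± 236 CPM, led by Ldha at 830.3 ± 46.8 and Aldoa at 771 ± 29.6, and defence against reactive oxygen to 5583 ± 338 CPM, led by Gpx1 at 1250.1 ± 166.

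Factors known to drive mitochondrial biogenesis were counted at low levels: Esrra at 2.53 ± 1.90 CPM, the coactivators Ppargc1a and Ppargc1b at 14.5 ± 12.7 and 8.44 ± 1.64, Nrf1 at 33.4 ± 7.35, Gabpa at 26.6 ± 5.02, Yy1 at 41.3 ± 15.03, Tfam at 66.2 ± 5.001 and the mitochondrial RNA polymerase Polrmt at 15.1 ± 4.04. The whole regulator list, led by Myc, had rho -0.061 ± 0.092 with the nuclear and -0.074 ± 0.096 with the mt-encoded sum. Genes of mitochondrial DNA and RNA upkeep, led by Hsd17b10, had 0.099 ± 0.13 with the nuclear and -0.057 ± 0.10 with the mt-encoded sum, mitochondrial translation factors 0.14 ± 0.11 with the nuclear and -0.16 ± 0.13 with the mt-encoded sum, and the mitochondrial stress list, led by Atf4, 0.063 ± 0.060 with the nuclear and -0.12 ± 0.059 with the mt-encoded sum. The hypoxia list had 0.025 ± 0.073 with the nuclear and -0.056 ± 0.18 with the mt-encoded sum.

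Lineage lists were close to 0 or of mixed sign: myeloid genes had -0.017 ± 0.077 with the nuclear and 0.019 ± 0.066 with the mt-encoded sum, lymphoid and multipotent progenitor genes 0.057 ± 0.18 with the nuclear and 0.057 ± 0.075 with the mt-encoded sum, and megakaryocyte genes -0.091 ± 0.043 with the nuclear and 0.027 ± 0.069 with the mt-encoded sum, the nuclear value negative in 4 of 4 libraries. Of the marker lists of other cells, the endothelial list, which shares genes such as Egfl7 and Emcn with HSCs, had -0.12 ± 0.070 with the nuclear and -0.0073 ± 0.15 with the mt-encoded sum, the mast and basophil list, carried by the HSC gene Gata2, -0.099 ± 0.11 with the nuclear and -0.094 ± 0.14 with the mt-encoded sum, and erythroid markers 0.031 ± 0.098 with the nuclear and 0.074 ± 0.12 with the mt-encoded sum. B cell markers had -0.023 ± 0.099 with the nuclear and -0.085 ± 0.043 with the mt-encoded sum, T and NK markers 0.057 ± 0.19 with the nuclear and -0.045 ± 0.080 with the mt-encoded sum, macrophage markers 0.025 ± 0.13 with the nuclear and 0.026 ± 0.11 with the mt-encoded sum and stromal markers -0.049 ± 0.13 with the nuclear and 0.061 ± 0.14 with the mt-encoded sum. With the mt-encoded sum, the dormancy list had -0.060 ± 0.20, immediate-early genes -0.14 ± 0.22, the mitochondrial ribosome -0.091 ± 0.13, import genes -0.12 ± 0.097 (-0.078 without library 4) and the Myc list -0.036 ± 0.039.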
